A study of Mus musculus with 24 samples.

Results

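Mars1, Arhgap9, Gli1, Inhbe, Inhbc, Mbd6, Dctn2, Kif5a, Pip4k2c and Dtx3 are the 5 protein-coding genes on each side of Ddit3 on mouse chromosome 10, and their expression was examined in livers and liver tumors of mice that carry or lack Ddit3. Ddit3 encodes CHOP, the transcription factor that was deleted in the Chop-/- mice of this study. The rule that defines them is position next to Ddit3. They are 10 of the 16593 genes named on the array and have 15 probes, of which 9 probes of 7 genes were detected well enough to be tested. In the RefSeq gene order the genes run Dtx3, Pip4k2c, Kif5a, Dctn2 and Mbd6 up to Ddit3, and Mars1, Arhgap9, Gli1, Inhbe and Inhbc beyond it. The starts of Mbd6 and Ddit3 face each other, and the annotated 3′ ends of Ddit3 and Mars1 overlap on opposite strands.

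CHOP is induced when the integrated stress response raises ATF4, and it pairs with other C/EBP and ATF proteins. The genes around it have unrelated tasks. Mars1 charges the initiator and elongator tRNAs with methionine, Inhbe and Inhbc encode the activin subunits βE and βC that hepatocytes secrete, Dctn2 and Kif5a serve transport along microtubules, and Gli1 is a transcription factor and target gene of hedgehog signaling. A gene that is deleted by targeting in embryonic stem cells carries a stretch of the stem cells' chromosome with it, which backcrossing shortens but seldom removes.

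All mice were males of 9 months, either C57BL/6J or Chop-/- mice that had been extensively backcrossed to that strain and lack most of the CHOP open reading frame in every cell. At day 15 they had received an intraperitoneal injection of 25 mg/kg of the liver carcinogen diethylnitrosamine (DEN), or phosphate-buffered saline (PBS). Whole liver came from 3 wild-type and 3 Chop-/- mice given PBS and from 6 wild-type and 7 Chop-/- mice given DEN, and the DEN livers held nodular and non-nodular tissue. Large tumors came from DEN-injected mice, 3 wild-type and 2 Chop-/-, and the labels do not say whether tumors and livers share mice. The deleted allele and the chromosome around it go together in every Chop-/- mouse, so their parts in a genotype difference cannot be told apart here. RNA of each sample was read on 1 Illumina MouseRef-8 v2.0 BeadChip array, where a probe's signal is averaged over its beads. Values are background-corrected, quantile-normalized log2 signals of a probe, and a genotype difference is Chop-/- minus wild-type on that scale. A probe was called at a Benjamini-Hochberg adjusted p under 0.05 from limma, over all 12707 probes tested. Arrays are named by their set (A, B or C, 8 arrays each) and number.

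Between 8953 and 11248 probes were detected per array (detection p under 0.01). The hepatocyte genes Alb, Apoa1 and Ttr were detected on every array. Probe ILMN_2927373 of Ddit3 had signal above background on each of 12 wild-type arrays and on 0 of 12 from Chop-/- mice. It was at least 2.04-fold lower in Chop-/- PBS livers (adjusted p = 5.42e-05 from limma), at least 2.39-fold lower in DEN livers (adjusted p = 2.79e-09) and at least 10.6-fold lower in tumors (adjusted p = 4.6e-11), taken against the lowest detected signal on the Chop-/- arrays. The position of the probe relative to the deletion was not known here. The summed signal of 9 Kupffer cell markers was 2980 to 3630 in wild-type and 1120 to 1750 in Chop-/- PBS livers, and 2210 to 4150 against 1730 to 2300 in DEN livers. Chop-/- tumor array C_24 stood apart from the other tumors in 3 neutrophil and monocyte markers, which summed to 3270 there, to 212 on B_16 and to 150 to 178 in wild-type tumors. In whole tissue, fewer cells of a type and less RNA per cell cannot be told apart.

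Among the flanking genes, only Mars1 differed between genotypes in DEN livers, while Mars1, Inhbe and Inhbc differed in tumors and none passed in PBS livers. In PBS livers 0 of the 9 member probes were called by limma (2, both of Mars1, at an unadjusted p under 0.05, as were 1306 of all 12707 probes), where 0.0315% of all probes were called. In DEN livers both Mars1 probes were called, 2 of 9, against 0.063% of all probes. In tumors 4 of 9 member probes were called, all lower in Chop-/- tumors, against 9.44% of all probes. Groups of PBS livers did not overlap for 4 member probes, where this held for 14.5% of all probes. For DEN livers the counts were 2 member probes and 0.165% of all probes, and for tumors they were 7 member probes and 29.7%. The median difference over all probes was 0 in both kinds of liver and −0.01 in tumors, where quantile normalization holds it close to 0.

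**Figure D1:**
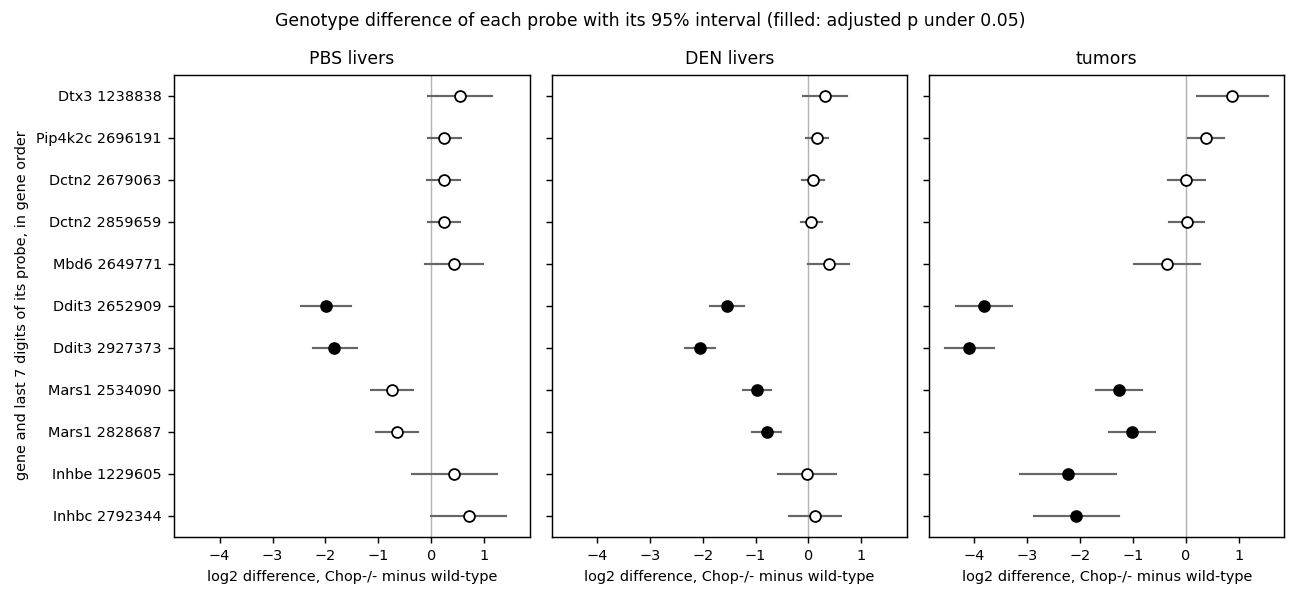
Genotype difference (Chop-/- minus wild-type, log2 scale) of each tested probe of the flanking genes and of Ddit3 in PBS livers, DEN livers and tumors, with 95% confidence intervals from limma. Both Mars1 probes lie below 0 in all 3 panels, and the intervals of Inhbe and Inhbc exclude 0 in tumors only.

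Mars1, which encodes cytosolic methionyl-tRNA synthetase, lies next to Ddit3, and both of its probes had lower values in Chop-/- mice in livers and tumors alike. In PBS livers probe ILMN_2534090 had log2 values of 10.19, 10.11 and 9.79 in wild-type and of 9.23, 9.28 and 9.37 in Chop-/- mice. Every wild-type liver was above every Chop-/- liver, by a difference of −0.74 (standard error 0.19, 95% interval −1.13 to −0.34) that did not pass over all probes (adjusted p = 0.272 from limma). The exact two-sided permutation test gave p = 0.1, the smallest that 3 against 3 samples allow. In DEN livers the probe had 10.06, 9.92, 9.70, 9.95, 10.31 and 10.24 in the 6 wild-type livers, and 9.03, 8.94, 9.31, 8.81, 9.29, 8.95 and 9.11 in the 7 Chop-/- livers. These ranges were apart as well. The DEN difference was −0.97 (standard error 0.13), a 1.95-fold lower signal (adjusted p = 0.000398 from limma), and the exact permutation p of 0.000583 was the smallest of 1716 splits.

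In tumors, Mars1 probe ILMN_2534090 had values of 10.02, 9.83 and 9.51 in wild-type and 8.79 and 8.24 in Chop-/- mice. The Chop-/- tumors were the lowest 2 of all 24 arrays. The signal was 2.4-fold lower there, a difference of −1.27 (standard error 0.21, adjusted p = 0.000702 from limma; exact permutation p = 0.1, the smallest of 10 splits). The second Mars1 probe, ILMN_2828687, had the same order. It had values of 7.77, 7.64 and 7.47 against 6.99, 6.89 and 7.07 in PBS livers, and its difference of −0.64 was not called (adjusted p = 0.365). In DEN livers it ran from 7.25 to 8.05 (median 7.57) in wild-type and from 6.59 to 7.00 (median 6.83) in Chop-/- mice, which is a difference of −0.79 (standard error 0.13, adjusted p = 0.00903). The tumor values were 7.45, 7.24 and 6.72 against 5.98 and 6.25 (difference −1.02, standard error 0.21, adjusted p = 0.00486 from limma). The exact permutation p there was 0.2, above the smallest possible of 0.1. Neither probe overlapped between genotypes in any of the 3 comparisons. The 2 probes correlated with r = 0.93 over the 24 arrays, which share groups and normalization.

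**Figure D2:**
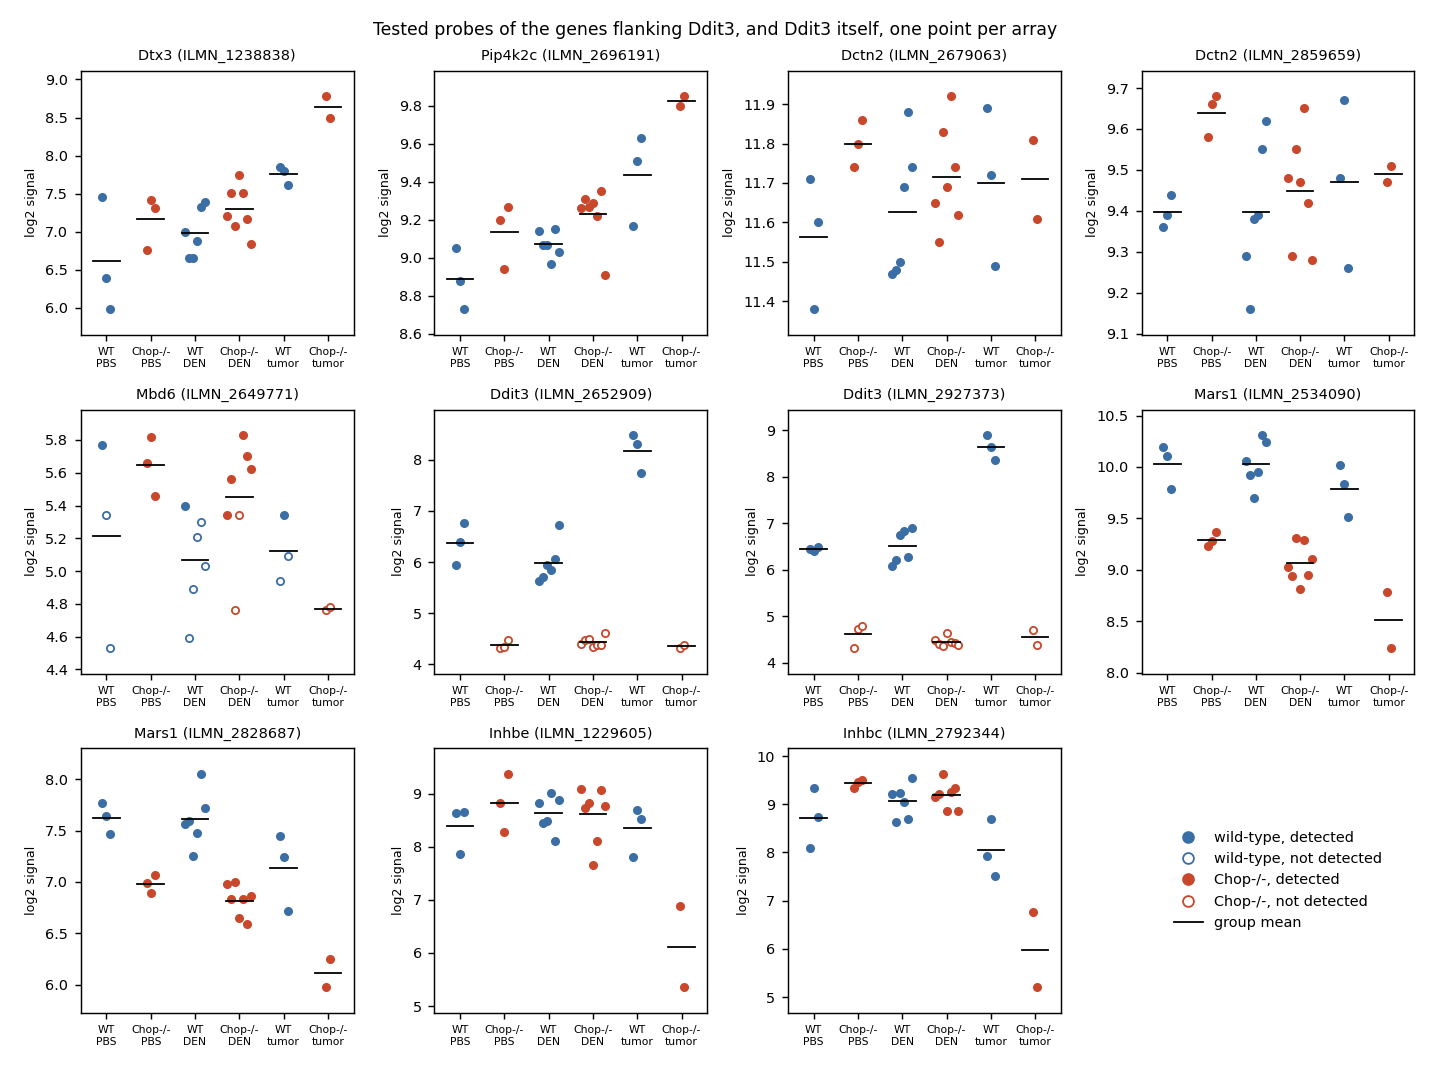
Log2 signal of member probes on each of the 24 arrays, by group, with the group mean. The Mars1 values of Chop-/- samples lie below those of wild-type samples within PBS livers, within DEN livers and within tumors.

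The Mars1 difference had the same sign in each array set. Within sets A, B and C probe ILMN_2534090 differed by −0.96, −0.83 and −0.42 in PBS livers and by −1.0, −0.76 and −1.16 in DEN livers. Tumors of both genotypes were together only in set B, 1 of each, and differed there by −0.71. Without Chop-/- tumor C_24 the tumor difference of this probe was −0.99 and lost its call (adjusted p = 0.054 from limma), while that of ILMN_2828687 kept it (−1.16, adjusted p = 0.0346). Neither tumor call remained when only the tumors were fitted (adjusted p = 0.379 for both). The genotype difference of ILMN_2534090 in tumors was tested against that in DEN livers and gave no call (interaction −0.30, adjusted p = 0.521). Within Chop-/- mice Mars1 was lower in tumors than in DEN livers by −0.55 and −0.71 for the 2 probes (adjusted p = 0.0239 and 0.0048 from limma). The first was −0.27 without tumor C_24 (adjusted p = 0.466), the second −0.57 without B_16 (adjusted p = 0.0784), and array weights ended both calls (adjusted p = 0.205 and 0.086). Within wild-type mice the probes differed by −0.24 and −0.48 (adjusted p = 0.328 and 0.0438), and the second call was lost in 9 of 21 alternatives, with −0.27 without tumor B_12 (adjusted p = 0.345). Kupffer cell markers had lower values in the same Chop-/- samples, with all 9 differences below 0 in PBS and in DEN livers, and their part in the Mars1 difference was not tested.

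The other cytosolic aminoacyl-tRNA synthetases, which load the remaining amino acids and like Mars1 include many targets of ATF4, gave no call in livers. Of 15 tested, none was called in PBS livers (median −0.04) or in DEN livers (median 0.05). In tumors 1 of 15 was called, where 9.44% of all probes were called in either direction. It was Aars, the alanyl-tRNA synthetase, lower by −1.0 (adjusted p = 0.0224 from limma). The list median was −0.23 against −0.01 over all probes. Of 19 genes of the integrated stress response, none was called in either kind of liver (medians 0.14 and 0.06). In tumors 2 of the 19 were called lower and 1 higher, against the same 9.44% of all probes. Atf5 and Fgf21 were lower, by −1.06 and −3.24. Ppp1r15a, which encodes a phosphatase subunit that ends the response, was higher by 1.14. The median of this list in tumors was 0.37 against −0.01 over all probes, with 6 of 19 values below 0. The levels of Mars1 and Ddit3 over the 12 wild-type arrays had r = −0.43, which is a description of arrays from 3 groups.

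The promoters of Ddit3 and Mars1 are shown because these genes adjoin and the signals of both were lower in Chop-/- mice. They span the 250 bases before and the first 50 bases of each gene (RefSeq, GRCm38.p6), given 5′ to 3′ in the direction of the gene, Ddit3 at chr10:127290543-127290842 on the plus strand and Mars1 at chr10:127311737-127312036 on the minus strand. Capitals mark the CCAAT box (CCAAT, or ATTGG on the other strand), which 37.4% of 32851 promoters of this length hold. It starts 77 bases before the Ddit3 start and 222 bases before that of Mars1. The composite element TGATGNAA, to which C/EBP-ATF pairs can bind, was searched on both strands and matched in neither window.
Ddit3: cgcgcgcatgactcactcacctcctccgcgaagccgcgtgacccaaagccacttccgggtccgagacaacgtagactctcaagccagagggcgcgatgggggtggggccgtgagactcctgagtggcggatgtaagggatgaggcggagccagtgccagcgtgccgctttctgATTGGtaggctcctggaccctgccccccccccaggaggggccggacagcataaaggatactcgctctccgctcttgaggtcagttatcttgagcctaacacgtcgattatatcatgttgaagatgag
Mars1: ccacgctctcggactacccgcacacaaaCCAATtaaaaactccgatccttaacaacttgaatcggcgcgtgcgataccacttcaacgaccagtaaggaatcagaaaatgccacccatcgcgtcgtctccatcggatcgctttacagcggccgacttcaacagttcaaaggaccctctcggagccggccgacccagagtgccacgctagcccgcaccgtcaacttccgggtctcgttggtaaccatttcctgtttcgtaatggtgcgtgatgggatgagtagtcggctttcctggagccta

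Inhbe and Inhbc, neighbors of each other, had lower signals in Chop-/- than in wild-type tumors, while their liver values overlapped between genotypes. The activin subunits they encode are made almost only by hepatocytes. Their promoters are shown for the same windows (RefSeq, GRCm38.p6), Inhbe at chr10:127351799-127352098 and Inhbc at chr10:127370499-127370798, both on the minus strand. The capitals TTGCATCA in Inhbe are the composite element TGATGNAA on the other strand, starting 181 bases before the gene, a match that 3.97% of promoters have. The capitals CCAAT in Inhbe are a CCAAT box 55 bases before the gene. Inhbc has neither in this window.
Inhbe: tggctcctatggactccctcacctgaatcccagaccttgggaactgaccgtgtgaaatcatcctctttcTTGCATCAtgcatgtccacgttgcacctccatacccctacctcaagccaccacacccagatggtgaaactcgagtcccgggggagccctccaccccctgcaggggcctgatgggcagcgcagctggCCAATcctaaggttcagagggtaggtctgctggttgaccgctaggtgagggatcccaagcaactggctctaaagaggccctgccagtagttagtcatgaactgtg
Inhbc: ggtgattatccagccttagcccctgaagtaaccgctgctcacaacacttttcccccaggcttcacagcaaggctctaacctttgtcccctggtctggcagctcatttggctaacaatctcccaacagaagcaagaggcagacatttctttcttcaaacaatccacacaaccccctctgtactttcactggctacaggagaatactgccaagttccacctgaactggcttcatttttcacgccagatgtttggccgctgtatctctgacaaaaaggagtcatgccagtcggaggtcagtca

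Inhbe (ILMN_1229605) had log2 values of 8.63, 7.86 and 8.66 in wild-type and 8.83, 8.28 and 9.37 in Chop-/- PBS livers. These groups overlapped (difference 0.44, adjusted p = 0.707 from limma). In DEN livers it ran from 8.10 to 9.02 (median 8.66) in wild-type and from 7.65 to 9.09 (median 8.77) in Chop-/- mice. The wild-type range lay inside the Chop-/- range, and the difference was −0.02 (95% interval −0.57 to 0.53, adjusted p = 1). The 3 wild-type tumors had 7.80, 8.70 and 8.53, and the Chop-/- tumors 6.88 on array B_16 and 5.36 on array C_24. Both Chop-/- tumors were below every other array, by a tumor difference of −2.22 (standard error 0.44, 95% interval −3.13 to −1.31), or 4.67-fold (adjusted p = 0.00323; exact permutation p = 0.1, the smallest possible).

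Inhbc (ILMN_2792344) had values of 8.10, 9.34 and 8.73 in wild-type and 9.33, 9.46 and 9.51 in Chop-/- PBS livers (difference 0.71, adjusted p = 0.486 from limma). The ranges overlapped by a single value. In DEN livers it ran from 8.64 to 9.54 (median 9.13) in wild-type and from 8.87 to 9.63 (median 9.22) in Chop-/- mice (difference 0.13, adjusted p = 1). Wild-type tumors had 7.93, 8.70 and 7.52 and Chop-/- tumors 6.76 and 5.21. Again both Chop-/- tumors were lowest, B_16 less so than C_24. The signal was 4.2-fold lower (difference −2.07, standard error 0.39, 95% interval −2.87 to −1.27, adjusted p = 0.00205; exact permutation p = 0.1, the smallest possible).

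**Figure D3:**
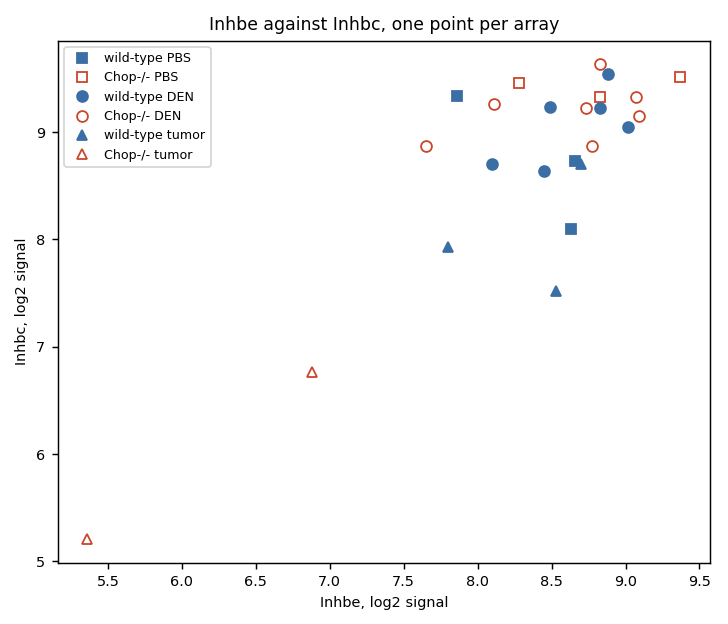
Log2 signal of Inhbc against that of Inhbe on each of the 24 arrays, by group. The 19 liver arrays form 1 cloud, and the 2 Chop-/- tumors lie lowest on both axes.

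The drop in Chop-/- tumors was larger than the genotype difference in DEN livers, with an interaction of −2.20 for Inhbe (standard error 0.51, adjusted p = 0.0191) and of −2.20 for Inhbc (standard error 0.45, adjusted p = 0.00933). These were 2 of the 9 member probes, against 3.99% of all probes called in this interaction. In the interaction of genotype with DEN in livers, 0 of 9 member probes and 0% of all probes passed (437 of all probes and none of the members at an unadjusted p under 0.05 in limma). From DEN liver to tumor within Chop-/- mice, Inhbe differed by −2.49 (standard error 0.39, adjusted p = 2.73e-05) and Inhbc by −3.21 (standard error 0.34, adjusted p = 2.56e-07). Within wild-type mice Inhbc was lower in tumors by −1.01 (standard error 0.30, adjusted p = 0.0183), and Inhbe had −0.29 (adjusted p = 0.621). The wild-type call of Inhbc was lost without tumor A_04 (adjusted p = 0.0645) or B_12 (adjusted p = 0.151).

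The tumor calls of both genes rested on array C_24. Without it the tumor difference was −1.46 for Inhbe (adjusted p = 0.183 from limma) and −1.30 for Inhbc (adjusted p = 0.146), and the interactions were −1.44 (adjusted p = 0.336) and −1.43 (adjusted p = 0.221), none of them called. The interaction of Inhbe was also lost without wild-type tumor A_08 (−2.02, adjusted p = 0.0644). Within array set B the tumors differed by −1.64 for Inhbe and −0.77 for Inhbc. C_24 was the array with the high neutrophil and monocyte sum of 3270, and its 6 endothelial markers summed to 1760, against 3450 on B_16 and 3970 to 7960 in wild-type tumors. The 8 hepatocyte markers summed to 98500 on C_24, 90800 on B_16 and 82800 to 91000 in wild-type tumors. Alb alone ran from 11.56 to 11.79 in wild-type tumors and had 10.45 and 11.65 in the Chop-/- tumors. The part of these cell type values in the result was not tested. Over all 24 arrays Inhbe and Inhbc correlated with r = 0.82, and over the 19 liver arrays with r = 0.25.

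Of 10 other genes of activin signaling, none was called in PBS livers (median 0.02) or DEN livers (median 0.06). In tumors 3 of 10 were higher in Chop-/- mice, where 9.44% of all probes were called in either direction. With only the tumors fitted, the calls over all probes fell from 1199 to 2. Inhbb, the βB subunit, was higher by 3.01 (standard error 0.93, adjusted p = 0.0417 from limma). Fst, the secreted activin antagonist follistatin, was higher by 2.33 (standard error 0.65, adjusted p = 0.0265), and Smad4, which carries the signal to the nucleus, by 0.47 (adjusted p = 0.0447). The list median was −0.04, with 6 of 10 values below 0.

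Dtx3, a Deltex family ubiquitin ligase at the far end of the other side, was higher in tumors than in livers. Its probe ILMN_1238838 had 7.46, 6.39 and 5.98 in wild-type and 6.76, 7.42 and 7.31 in Chop-/- PBS livers. In DEN livers it ran from 6.66 to 7.39 (median 6.93) in wild-type and from 6.84 to 7.74 (median 7.21) in Chop-/- mice. The genotypes overlapped in both, with differences of 0.55 and 0.31 (adjusted p = 0.514 and 1 from limma). Wild-type tumors had 7.85, 7.80 and 7.61 and Chop-/- tumors 8.78 and 8.49, which did not overlap. That difference of 0.88 (standard error 0.33, 95% interval 0.21 to 1.56) missed the threshold (adjusted p = 0.0867) and passed it only on the authors' log2 values (0.68, adjusted p = 0.0301).

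Against livers of their own genotype, Dtx3 was higher in tumors by 1.14 over wild-type PBS livers (adjusted p = 0.00798 from limma), by 0.77 over wild-type DEN livers (adjusted p = 0.0326) and by 1.34 over Chop-/- DEN livers (adjusted p = 0.000771). Of the 9 member probes, 2 were called between wild-type tumors and PBS livers, against 17.6% of all probes, and 4 between wild-type tumors and DEN livers, against 20.6%. Between Chop-/- tumors and DEN livers 7 were called, against 36.7% of all probes. DEN livers against PBS livers gave 0 of 9 in wild-type mice (0% of all probes, 328 at an unadjusted p under 0.05 in limma and none of the members) and 0 of 9 in Chop-/- mice (0.0157% of all probes). Without PBS liver C_17 the first Dtx3 difference was 0.83 (adjusted p = 0.0728), and the second lost its call in 8 of 23 alternatives. Of 8 tested genes of the Deltex family and the Notch pathway, 3 were higher in wild-type tumors than in DEN livers (median 0.59). Between tumors 1 of the 8 was called, Notch1, lower in Chop-/- mice by −1.18, against 9.44% of all probes.

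Pip4k2c, a lipid kinase that acts on phosphatidylinositol 5-phosphate, had the same order of groups with smaller steps. ILMN_2696191 had 9.05, 8.88 and 8.73 in wild-type and 9.20, 8.94 and 9.27 in Chop-/- PBS livers. DEN livers lay from 8.97 to 9.15 (median 9.07) and from 8.91 to 9.35 (median 9.27). Tumors had 9.17, 9.51 and 9.63 in wild-type and 9.80 and 9.85 in Chop-/- mice, again without overlap. The genotype differences were 0.25, 0.16 and 0.39 in PBS livers, DEN livers and tumors, none of them called (adjusted p = 0.562, 1 and 0.144 from limma). Tumors were higher than livers by 0.55 over wild-type PBS livers (adjusted p = 0.0116), by 0.37 over wild-type DEN livers (adjusted p = 0.0451) and by 0.60 over Chop-/- DEN livers (adjusted p = 0.00254). The first of these was lost without tumor B_12 (adjusted p = 0.0688) or liver C_17 (adjusted p = 0.0603), and the second in 10 of 23 alternatives. Of 3 other phosphatidylinositol phosphate kinases tested, none was called between genotypes (median −0.12 in tumors).

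Dctn2, a dynactin subunit of the dynein motor's adaptor, had the smallest tumor differences among the tested member probes. In PBS livers ILMN_2679063 had 11.71, 11.38 and 11.60 in wild-type and 11.74, 11.80 and 11.86 in Chop-/- mice. Probe ILMN_2859659 had 9.36, 9.39 and 9.44 against 9.58, 9.66 and 9.68. Neither probe overlapped between genotypes, with a difference of 0.24 for each that was not called (adjusted p = 0.578 and 0.562 from limma). In DEN livers the differences were 0.09 and 0.05. In tumors they were 0.01 (95% interval −0.34 to 0.36) and 0.02 (−0.32 to 0.35). Another Dctn2 probe, ILMN_2707623, was detected on no array. Of 13 other dynactin and dynein subunits, 3 were higher in Chop-/- tumors (median 0.34), against 9.44% of all probes called there. None was called in livers.

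Mbd6, a methyl-CpG-binding domain protein that joins the BAP1 deubiquitinase complex and whose start faces that of Ddit3, was near the detection limit. Its probe ILMN_2649771 was detected on 11 of 24 arrays, namely 1 of 3 wild-type and 3 of 3 Chop-/- PBS livers, 1 of 6 and 5 of 7 DEN livers, and 1 of 3 and 0 of 2 tumors. Its log2 value in DEN livers ran from 4.59 to 5.40 (median 5.12) in wild-type and from 4.76 to 5.83 (median 5.56) in Chop-/- mice, which overlapped. The genotype differences were 0.44, 0.38 and −0.35 (adjusted p = 0.574, 1 and 0.504 from limma), so the immediate neighbor on the promoter side of Ddit3 gave no call in either direction. Chop-/- tumors were at least 1.16-fold lower than Chop-/- DEN livers (adjusted p = 0.0478), a call lost in 15 alternatives. Of 7 other methyl-CpG-binding proteins and BAP1 partners, none was called between genotypes.

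Kif5a, Arhgap9 and Gli1 were below the limit for testing. Kif5a, a kinesin heavy chain used mainly by neurons, has 3 probes, of which 1 (ILMN_3065852) was detected on 1 array, a Chop-/- DEN liver, at 5.24. Arhgap9 was detected only on tumor array C_24, at 6.84, the array with the high neutrophil and monocyte sum. Gli1 was detected on 0 of 24 arrays, and of 12 hedgehog pathway genes on the array 3 were tested, with no genotype call. For these members the arrays give no difference, which does not show that they are not expressed.

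Outside the 10 genes, calls in DEN livers lay on the same chromosome but were spread along it. All 8 probes called in DEN livers (5 genes) were among the 578 tested on chromosome 10, and 0 of 12129 elsewhere were called, although up to 3 elsewhere passed in alternatives. Of the 8, 2 belong to Ddit3, the deleted gene, and 2 to the member Mars1. Both Ddit3 probes were detected on wild-type arrays only, so they passed the filter through the group where they are high. Outside the members and Ddit3, 1 call belongs to Sdr9c7 and 3 to Washc3 and Ttc41. Sdr9c7, a short-chain dehydrogenase 25 genes beyond Ddit3, ran from 7.76 to 8.36 in wild-type and from 4.55 to 5.42 in Chop-/- DEN livers on probe ILMN_2887537, without overlap. Its difference was −2.83 in PBS livers (adjusted p = 0.000251 from limma) and −2.91 in DEN livers (adjusted p = 1.78e-07), where it was detected on 1 of 3 and 3 of 7 Chop-/- arrays. In tumors it was detected on 0 of 2 Chop-/- arrays and was at least 2.14-fold lower (adjusted p = 0.00871). Its 2 other probes also had lower values in Chop-/- DEN livers, without overlap, by −0.44 and −1.21. They were not called there (adjusted p = 1 and 0.301). In tumors both were called lower, by −1.44 and −1.69 (adjusted p = 0.0177 and 0.0256 from limma). The 3 probes thus share a direction in DEN livers and tumors and differ in size. In PBS livers the 2 other probes differed by −0.08 and −0.99 and were not called (adjusted p = 0.951 and 0.454 from limma). Washc3 and Ttc41, named after their values were seen, lie 199 and 209 genes away on the other side. In DEN livers 1 of 3 Washc3 probes was called, with −1.34 (adjusted p = 0.0305) beside −0.64 and 0.09. Of 3 Ttc41 probes 2 were called (adjusted p = 0.0305 each). They were detected on 0 of 6 wild-type and 7 of 7 Chop-/- DEN livers and were at least 1.31-fold and 1.55-fold higher in the latter. No wild-type array of any group detected them, so they passed the filter for testing only through Chop-/- samples, where they are high. The other probe differed by −0.06. In PBS livers 3 of the 4 called probes lay on chromosome 10, those of Ddit3 and 1 of Sdr9c7. The remaining call was on chromosome 17, for the Kupffer cell marker Adgre1 (−1.61, adjusted p = 0.0338 from limma). A second Adgre1 probe had −1.19 and was not called (adjusted p = 0.194).

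**Figure D4:**
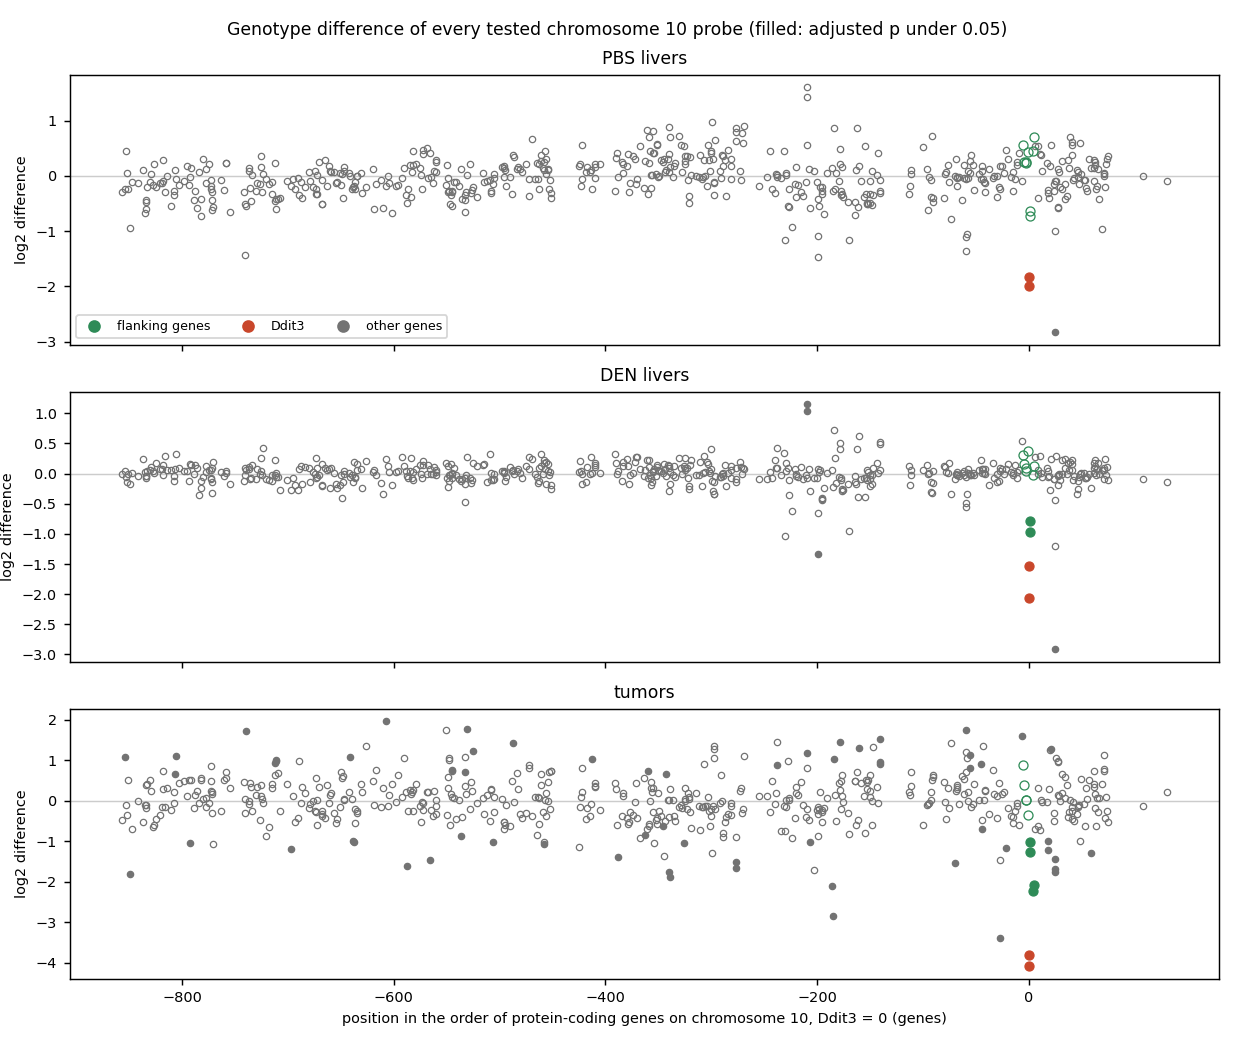
Genotype difference (log2 scale) of probes of chromosome 10 in PBS livers, DEN livers and tumors against the number of protein-coding genes from Ddit3 in the RefSeq order. The probes with the largest differences in livers are those of Ddit3 and 1 probe of Sdr9c7, all below 0 as Mars1 is.

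Of the 52 other genes with tested probes among the 50 nearest on each side (70 probes), 1 probe was called in PBS livers and 1 in DEN livers, both of Sdr9c7. That is 1.43% of the probes, where Mars1 gave 2 of the 9 probes of the members in DEN livers. In tumors 11 probes of 8 of these genes were called, or 15.7%, against 9.44% of all probes and 11.8% of those on chromosome 10. Of the 8 genes, 5 were lower and 3 higher. Avpr1a, the vasopressin receptor of hepatocytes, was lower in Chop-/- tumors by −3.39 on 1 probe (adjusted p = 0.000765 from limma). Its other probe had −1.47 and was not called (adjusted p = 0.054). Lrig3, Helb and Gpr182 were also lower (Lrig3 −1.15, Helb −0.70), and Arhgef25 by 1.61 and Rdh16 by 1.27 were higher. The other Helb probe had −0.47 and was not called (adjusted p = 0.12). Grip1 was detected on 0 of 3 wild-type and 2 of 2 Chop-/- tumors and on no other array. It was thus tested only through the group where it is high, and was at least 1.3-fold higher there. The tested genes next to the members were not called in livers. On the Dtx3 side, Arhgef25 had −0.10 in PBS and 0.55 in DEN livers, and Os9, which acts in the disposal of misfolded proteins of the endoplasmic reticulum, had 0.42 and 0.06. On the Inhbc side, R3hdm2 had 0.54 and 0.28, and Shmt2, the mitochondrial serine hydroxymethyltransferase, had 0.54 and 0.06 on its first probe and −0.41 and 0 on its second.

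For each member detected on all arrays, the 2 genes outside the members whose brightest probe correlated best with it over the 24 arrays are given as a description. For Mars1 they were Hal, histidine ammonia-lyase, with r = 0.76 (0.81 over the 19 liver arrays), and Stab2, a scavenger receptor of liver endothelium, with 0.74 (0.61 in livers). Inhbe ran with Epha1 (0.91, 0.62 in livers) and Pparg (0.91, 0.84 in livers). Inhbc ran with Pemt, which makes phosphatidylcholine, and Xylb, each with 0.95 over all arrays and 0.41 and 0.55 in livers. The likeness of Inhbc to both was thus weaker within livers. Dtx3 ran with Rhbdf1 (0.91, 0.84 in livers) and Fam160a2 (0.89, 0.90 in livers), and Pip4k2c with the epithelial keratins Krt18 (0.89, 0.66 in livers) and Krt8 (0.88, 0.65 in livers). Dctn2 ran with Tardbp (0.84 in both) and Epc1 (0.82, 0.88 in livers). These were the closest of 8962 genes searched for each member, on arrays that share groups and normalization.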

How the data were processed

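RNA of 24 samples in 6 groups was read on 1 Illumina MouseRef-8 v2.0 array each. The bead intensities deposited by the authors came from GenomeStudio 2011.1 and were background subtracted (26.9% are negative) and brought to 1 distribution before deposit. The authors also deposited log2 values, which rank the probes as the intensities of 1 array do (24 of 24 samples, each an array of the same group). Arrays were assigned to groups by the array names in a supplementary table of the study. An array's detection p-values are those under its own name, and 48 further columns, the bead numbers and bead errors, were not used. The labels' replicate numbers are tied only to the log2 values.

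Intensities were corrected with the detection p-values by normexp, then quantile normalized and logged (limma 3.58.1 neqc, with offset 16; R 4.3.3; statmod 1.5.0). This corrects for background again, which affects differences of dim probes most. Probes with a detection p under 0.01 on at least 2 arrays were kept (12707 of 25697, from 8969 genes). The 6 group means were estimated together from the 24 arrays, with 1 moderated spread per probe and Benjamini-Hochberg adjustment over all probes kept. Exact two-sided permutation tests of group means were added for member probes. Where a group was undetected on every array, the fold is a bound against, per array, the higher of the lowest detected signal and the probe's own. The number of arrays limits the precision. Samples of a group are animals of that group per the study's description, and whether tumors and livers share animals is not stated.

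Named are all member probes and Ddit3, called genes among the 50 nearest on each side and the tested ones nearest to the members, up to 4 genes of each pathway list with the smallest p, and the 2 genes most like each member detected on all arrays. The members and lists were chosen with earlier results of these data known. Symbols are those of the array annotation, updated through RefSeq by gene identifier (23962 of 23978 named probes). Promoters are RefSeq's (GRCm38.p6), with entries for 6 of the 10 members.

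As alternatives, the second background correction was left out, medians were scaled in place of quantiles, the authors' values were fitted, the filter on dim probes was varied, and a gene's brightest probe or the mean of its probes was used. Fits were also made with only the groups compared, with weights per array, with array set or replicate number as a block, without moderation, and without each array in turn.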

Additional observations from a re-analysis of the deposited data

Results flagged for a closer look

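The difference between genotypes was larger in tumors than in DEN livers for Inhbe, by −2.20 (adjusted p = 0.0191 from limma), and for Inhbc, by −2.20 (adjusted p = 0.00933), as tested by the interaction of genotype and tissue. Both calls were lost without Chop-/- tumor array C_24.

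The Pip4k2c value of 8.91 on array C_23 lay apart from the other Chop-/- DEN livers, of which the nearest had 9.22. It was 1 of 22 group and probe combinations examined, and chance sets apart about 1 in 20.

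Of the probes that were not tested, that of Arhgap9 was detected on Chop-/- tumor array C_24 only, at 6.84, and 1 of Kif5a on Chop-/- DEN liver array C_23 only, at 5.24. Neither was detected on any wild-type array, but the Kif5a probe had 5.22 on wild-type DEN liver array C_18. Its detection p there was 0.0175, against 0.00877 on C_23, so only the cutoff of 0.01 parts the 2 values.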

How the results depend on the processing

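Over 2624 recomputed values of single member and Ddit3 probes, 2545 were counted as unchanged, 72 lost a call and 2 gained one. The unchanged values kept their side of the threshold. They include uncalled values that changed sign while moving by under 1 standard error. Another 5 changed sign with a larger move, all 5 among values that were not called. Those were Mbd6 without wild-type PBS liver A_01 or C_17 (from −0.43 to 0.19 with 1 array left out between wild-type tumors and PBS livers, from −0.48 to 0.14 between wild-type DEN and PBS livers, and from −0.34 to 0.28 in the interaction of genotype with DEN), and Ddit3 as the mean of its probes (−0.17 between wild-type DEN and PBS livers, 0.11 in the same interaction). The call of Mars1 probe ILMN_2534090 in DEN livers held in all 27 alternatives, with an adjusted p from 3.69e-06 to 0.00236 in limma.

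Counts of called member genes moved as follows. Between tumors the 3 genes became 0 with only the groups compared and 1 to 3 when 1 array was left out (1 without C_24). Between wild-type tumors and PBS livers the 2 genes became 0 with only the groups compared and 0 to 3 with 1 array left out (0 without C_17, 1 without B_12). Between wild-type tumors and DEN livers the 4 genes became 2 without a filter on dim probes, with only the groups compared or with the array set as a fixed block, and 0 to 3 with 1 array left out (0 without B_12). Between Chop-/- tumors and DEN livers 6 genes became 3 with array weights. In the interaction of genotype and tissue 2 genes became 0 to 2 with 1 array left out (0 without C_24, 1 without A_08).

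Counts over all probes moved too. In PBS livers the 4 probes became 0 with only the groups compared and 3 to 9 with 1 array left out. In DEN livers the 8 became 5 without a filter or with an equal-variance fit, 13 with array weights and 5 to 9 with 1 array left out. In tumors the 1199 became 2 with only the groups compared, 423 with array weights, 625 with the array set as a fixed block and 156 to 2674 with 1 array left out. The causes were not tested. Where a Chop-/- tumor was left out, the remaining one is assumed to vary like the other groups.

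The replicate block was fitted to the authors' log2 values. It left 0 probes called in PBS livers and 4 in DEN livers, 1 member gene in the interaction of genotype and tissue, and no call for Mars1 probe ILMN_2828687 in DEN livers (−0.50, adjusted p = 0.066). Same-numbered samples did not deviate together (r from −0.18 to 0.19). This gave no sign that the numbers pair the samples, but groups this small cannot exclude it. Dim members (Mbd6, Kif5a, Arhgap9, Gli1) are limited by signal over background.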
